A study of Rattus norvegicus with 10 samples.

Results

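The nuclear genes of the mitochondrial respiratory chain and of ATP synthase were compared between mammary glands of 5 ACI rats and 5 BN rats. Members were chosen by name alone: every probe set annotated to a single symbol that opens with Ndufa, Ndufb, Ndufc, Ndufs, Ndufv, Sdha to Sdhd, Uqcr, Cox4 to Cox8 or Atp5. The rule took 101 probe sets for 90 of the 14217 genes with a named probe set on the Affymetrix Rat Genome array. Each gene was represented by its probe set with the highest mean over the 10 arrays. Among them, 70 encode subunits of complexes I to V, 11 encode assembly factors, 3 encode muscle isoforms, 4 encode other tissue isoforms and paralogs, and 2 (*Atp5if1*, an inhibitor of ATP synthase, and the pseudogene *Cox6c-ps1*) encode no subunit. All rats were female, of the inbred strains ACI/SegHsd (ACI) or Brown Norway (BN), and had received 17beta-estradiol (E2) for 12 weeks from an implant under the skin placed when they were 9 weeks old. Untreated rats are not among the arrays, so the values compare strains during E2 treatment and do not measure what E2 changed. RNA came from the whole gland, which holds epithelium, fat, vessels and immune cells, so fewer cells of a type and less RNA per cell cannot be told apart. The strains were deposited in separate runs of samples, and strain and deposit cannot be told apart. The BN samples are described as Brown Norway in their strain field, while their RNA extraction note speaks of ACI rats.

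The respiratory chain sits in the inner mitochondrial membrane. Complexes I and II pass electrons from NADH and succinate to ubiquinone, complex III passes them on to cytochrome c, complex IV hands them to oxygen, and complex V, ATP synthase, makes ATP from the resulting proton gradient. Most subunits are encoded in the nucleus, a few in mitochondrial DNA, and the catalytic core of each complex is surrounded by accessory subunits. In the mammary gland, epithelial cells depend on this machinery for growth and secretion, white fat carries fewer mitochondria, and striated muscle carries its own isoforms of a few complex IV subunits.

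Most of these genes were not called between strains, and most of those that were called were more highly expressed in ACI rats. A gene was called when its p-value from limma, adjusted over all 31042 tested probe sets, was below 0.05. By this rule 10 of 90 genes (11.1%) were more highly expressed in mammary glands of ACI rats and 2 (2.22%) in those of BN rats, while 78 were not called. Among all genes, 8.29% were called higher in ACI rats and 9.12% higher in BN rats. The 12 called genes are all subunits of the complexes, 7 of complex I, 1 of complex II, 1 of complex IV and 3 of complex V. The median log2 difference, ACI minus BN, was 0.07 over the 90 genes and 0.09 over the 70 subunits, beside 0.0 over all genes, and 56 of the 90 genes lay above 0 and 32 below. Of the 90 genes, 84 had a mean level of at least 4 on the log2 scale, which runs from 2.23 to 15.8 in these data. Of all 14217 genes, 9363 reached this level, and 4119 lay below 4 in every rat. Shares and medians over all genes, here and below, include these weakly expressed genes, so they are not matched to the members in level. When probe sets averaging below 4 were left out, the median difference was 0.09 over the 84 members and 0.04 over everything tested. The strains did not overlap for 8 genes higher in ACI rats and 1 higher in BN rats, where the share over all genes was 8.3% and 8.32%. The number of genes called higher in ACI rats depended on single arrays: it was 5 without ACI rat 1 or ACI rat 2, 6 without ACI rat 3, ACI rat 4 or BN rat 1, and 13 without ACI rat 5. The 2 genes called higher in BN rats became 4 without BN rat 5, and 1 without ACI rat 1, ACI rat 4 or BN rats 1, 2 or 3 in turn. Calls of *Atp5f1a*, *Atp5mc3*, *Ndufa11*, *Ndufa2*, *Ndufa4* and *Ndufab1* held whichever of the 10 rats was left out. Over these 10 sets *Ndufa6* was called in 5, *Atp5f1b* and *Sdhb* in 4, *Ndufa7* and *Ndufb11* in 3 and *Ndufv2* in 2.

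**Figure D1:**
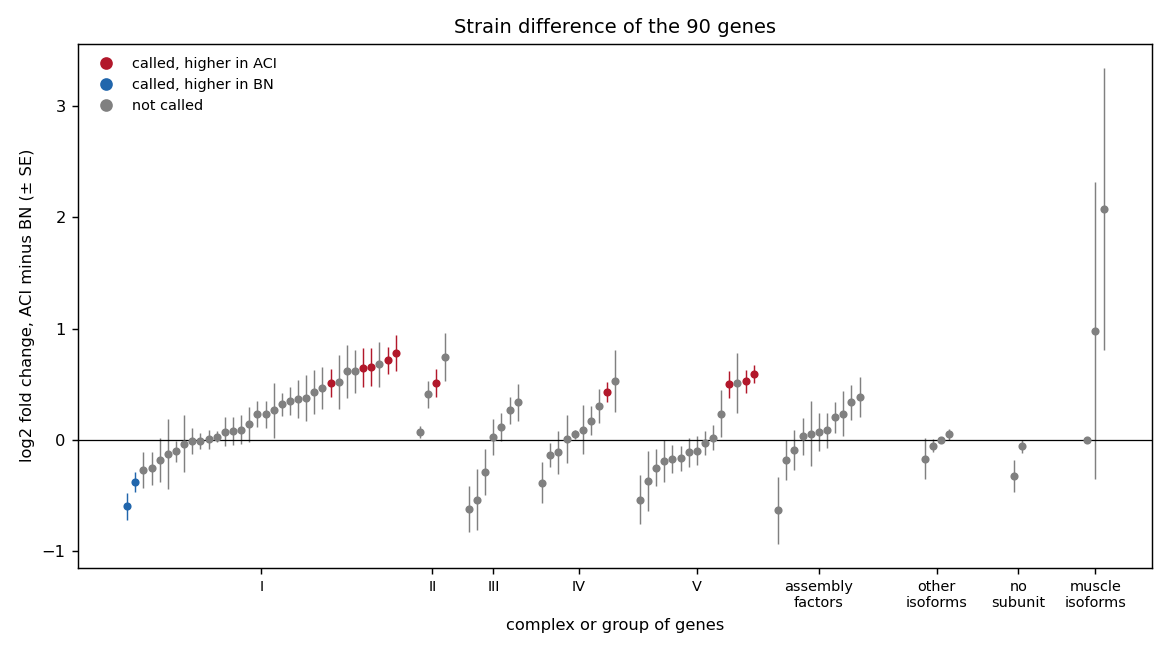
Log2 difference between strains (ACI minus BN, with its standard error) for each of the 90 genes, ordered within complexes I to V, assembly factors, other tissue isoforms, genes that encode no subunit and muscle isoforms; red, called higher in ACI; blue, called higher in BN; grey, not called. Called differences lie between -0.60 and 0.78, and the muscle isoforms *Cox6a2* and *Cox8b* have the widest standard errors.

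Promoters of respiratory chain genes are known for sites of NRF1 and of ETS family factors such as GABP, so the 250 bases before each gene's start were searched for the core letters TGCGCA (NRF1, the same on both strands) and CCGGAAG (ETS, read on both strands, where the reverse is CTTCCGG). Windows were taken from RefSeq on build GRCr8 and matched 82 of the 90 genes. Either motif was present in 47.6% of them (39 windows), beside 21.8% of the windows of all genes on the array (2551 of 11700) and 13.4% of all 27457 windows. TGCGCA was in 24.4% and CCGGAAG in 29.3% of the members' windows, against 10.6% and 12.9% for genes on the array, although the members' median GC content was lower (55.2% against 59.2%). The motifs were found among called and uncalled genes: 4 of 10 genes called higher in ACI rats (40.0%) and 25 of 52 uncalled subunits with a window (48.1%) held either motif, as did both genes called higher in BN rats. None of the 3 muscle isoforms held either motif. Letters in a window are a description and not a binding site. To show the range from several matches to none, 5 windows are printed with the motif letters in capitals. Matches numbered 3 TGCGCA for *Ndufa11*, 1 of each motif for *Ndufa6*, 1 CCGGAAG for *Sdhb*, 2 on the reverse strand for *Cox8a* and 0 for the muscle isoform *Cox8b*.
Ndufa11 (higher in ACI; chr9:1637364-1637613, plus strand): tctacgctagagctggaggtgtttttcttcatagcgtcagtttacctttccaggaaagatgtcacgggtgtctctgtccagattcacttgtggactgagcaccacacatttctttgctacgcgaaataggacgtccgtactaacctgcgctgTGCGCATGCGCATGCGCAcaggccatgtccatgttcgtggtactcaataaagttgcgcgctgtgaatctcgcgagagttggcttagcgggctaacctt
Ndufa6 (higher in BN; chr7:115750318-115750567, minus strand): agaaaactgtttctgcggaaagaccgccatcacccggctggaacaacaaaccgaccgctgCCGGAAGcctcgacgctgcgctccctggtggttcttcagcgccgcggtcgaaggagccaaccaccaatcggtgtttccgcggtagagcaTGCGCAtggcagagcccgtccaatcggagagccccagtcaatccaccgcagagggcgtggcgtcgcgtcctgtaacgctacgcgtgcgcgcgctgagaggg
Sdhb (higher in ACI; chr5:158547684-158547933, plus strand): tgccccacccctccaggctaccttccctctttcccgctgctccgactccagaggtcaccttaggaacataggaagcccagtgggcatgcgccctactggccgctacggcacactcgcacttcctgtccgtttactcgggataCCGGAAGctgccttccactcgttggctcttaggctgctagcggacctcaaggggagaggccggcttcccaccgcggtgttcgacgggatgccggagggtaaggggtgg
Cox8a (not called; chr1:213833624-213833873, minus strand): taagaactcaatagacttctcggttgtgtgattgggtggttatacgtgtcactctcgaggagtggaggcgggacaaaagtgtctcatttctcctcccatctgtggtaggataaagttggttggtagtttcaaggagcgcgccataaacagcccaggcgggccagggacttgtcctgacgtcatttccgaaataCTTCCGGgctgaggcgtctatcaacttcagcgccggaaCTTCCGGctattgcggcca
Cox8b (not called; chr1:205408274-205408523, minus strand): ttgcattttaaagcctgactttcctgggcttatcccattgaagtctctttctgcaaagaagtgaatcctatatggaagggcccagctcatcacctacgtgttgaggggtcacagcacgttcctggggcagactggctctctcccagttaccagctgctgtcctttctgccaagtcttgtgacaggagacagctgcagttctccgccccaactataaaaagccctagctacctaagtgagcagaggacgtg

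Complex I, the NADH dehydrogenase, is the largest group, with 34 of the 70 subunits, and held most of the called genes. Of these 34, 5 were called higher in ACI rats (14.7%) and 2 higher in BN rats (5.88%), with a median log2 difference of 0.23. The shares over all genes were 8.29% and 9.12%. All 6 measured core subunits, the part of the complex that takes electrons from NADH towards ubiquinone, had a higher mean in ACI rats (median 0.62, from 0.09 to 0.68), but only *Ndufv2* was called. Among the 28 accessory subunits, 4 were called higher in ACI rats and 2 higher in BN rats, and the median was 0.11.

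The difference was largest for *Ndufa11*, an accessory subunit of the membrane arm. Its log2 levels were 10.23, 10.09, 10.24, 10.11 and 9.51 in the ACI rats and 9.21, 9.37, 9.36, 9.44 and 8.91 in the BN rats. The strains did not overlap, although ACI rat 5 lay well below the other ACI rats and close to the highest BN rat. The log2 difference was 0.78 ± 0.16 (SE, n = 5 rats per strain), or 1.72-fold, with a limma adjusted p of 0.0155. *Ndufab1*, the mitochondrial acyl carrier protein that is also a complex I subunit, read 11.85, 12.03, 11.85, 11.65 and 11.84 in the ACI rats and 10.87, 11.26, 11.05, 11.49 and 10.98 in the BN rats. Every ACI rat was above every BN rat, and the levels differed by 0.71 ± 0.12 (1.64-fold, limma adjusted p = 0.00651).

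*Ndufa7*, an accessory subunit, had log2 levels of 11.03, 11.01, 10.82, 10.84 and 10.55 in the ACI rats and of 10.28, 10.44, 10.5, 10.1 and 9.66 in the BN rats. The ranges were separate by a small margin, with a difference of 0.65 ± 0.17 (1.57-fold, limma adjusted p = 0.0388). A second, dimmer *Ndufa7* probe set, with a mean of 4.82 in ACI rats, differed by 0.81 and was not called (limma adjusted p = 0.11). *Ndufv2*, the core subunit that lies next to the NADH-binding subunit, read 11.33, 11.34, 11.35, 11.4 and 10.85 in the ACI rats and 10.62, 10.82, 11.03, 10.36 and 10.21 in the BN rats. ACI rat 5 lay below BN rat 3, so the strains overlapped, and the difference was 0.65 ± 0.18 (limma adjusted p = 0.0469). *Ndufb11*, an accessory subunit of the membrane arm, lay between 9.71 and 10.04 in the ACI rats and read 9.59, 9.71, 9.15, 9.37 and 9.13 in the BN rats. Its lowest ACI value equalled its highest BN value, and the difference was 0.51 ± 0.13 (limma adjusted p = 0.0329).

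Both genes called higher in BN rats also encode accessory subunits of complex I. *Ndufa2*, a thioredoxin-like subunit of the arm that takes up NADH, read 10.33, 10.56, 10.56, 10.31 and 10.1 in the ACI rats against 11.01, 11.14, 11.11, 10.96 and 10.63 in the BN rats. Every BN rat was above every ACI rat, and the difference, ACI minus BN, was -0.60 ± 0.12 (1.51-fold higher in BN, limma adjusted p = 0.0149). *Ndufa6*, which docks the acyl carrier protein onto complex I, read 10.07, 10.26, 10.16, 10.03 and 9.89 in the ACI rats against 10.58, 10.6, 10.47, 10.43 and 10.23 in the BN rats. Only BN rat 5 fell within the range of the ACI rats, and the difference was -0.38 ± 0.09 (limma adjusted p = 0.0259). *Ndufa6* and its partner *Ndufab1* thus differed between strains in opposite directions.

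The other core subunits of complex I came near the threshold or were far from it. *Ndufs8*, which carries iron-sulfur clusters, differed by 0.68 ± 0.20 (limma adjusted p = 0.0636), *Ndufv1*, the NADH-binding subunit, by 0.62 ± 0.19 (0.0797), and *Ndufs1*, the largest iron-sulfur subunit, by 0.61 ± 0.24 (0.155). *Ndufs7* and *Ndufs3* differed by 0.26 ± 0.25 and 0.09 ± 0.13. In *Ndufv1*, 4 ACI rats read between 10.17 and 10.36 and ACI rat 5 read 9.45, within the BN range of 9.21 to 9.86.

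Complex II, succinate dehydrogenase, is the one complex with no subunit encoded in mitochondrial DNA, and it also serves the tricarboxylic acid cycle. All 4 subunits had a higher mean in ACI rats (median 0.46), and 1 was called. *Sdhb*, the iron-sulfur subunit, read 11.23, 11.15, 11.04, 11.18 and 11.43 in the ACI rats and 10.56, 10.89, 11.02, 10.56 and 10.44 in the BN rats. The strains were separate, though ACI rat 3 and BN rat 3 nearly met, and the mean difference was 0.51 ± 0.12 (limma adjusted p = 0.0308). *Sdha*, the flavoprotein that oxidizes succinate, was also free of overlap (10.54 to 10.85 in ACI rats, 9.89 to 10.49 in BN rats) but just missed the threshold, with a difference of 0.41 ± 0.12 (limma adjusted p = 0.0614).

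The membrane anchors of complex II gave different pictures. *Sdhc* had the largest difference of the complex, 0.74 ± 0.22 (limma adjusted p = 0.0585), with 10.45, 10.53, 10.54, 10.38 and 10.05 in the ACI rats and 9.12, 9.34, 9.55, 10.13 and 10.09 in the BN rats. BN rats 4 and 5 sat with ACI rat 5, and BN rats 1 to 3 were far below. *Sdhd* differed by 0.07 ± 0.05 (limma adjusted p = 0.541), with every rat between 10.88 and 11.21.

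None of the 7 measured subunits of complex III was called in either direction, and their median difference was 0.03. *Uqcrc2*, a core protein of the complex, differed by 0.34 ± 0.16 at its brightest probe set (11.48 ± 0.14 in ACI rats, 11.14 ± 0.35 in BN rats, SD, limma adjusted p = 0.254). A second *Uqcrc2* probe set, with means of 9.53 and 8.65, was called higher in ACI rats (limma adjusted p = 0.00909). *Uqcr10*, a small accessory subunit, had the largest negative difference, -0.62 ± 0.21 (limma adjusted p = 0.0911). Its level was 10.94 in 4 ACI rats and in BN rat 5, 10.8 in ACI rat 3, and 11.99, 11.91, 11.69 and 11.15 in BN rats 1 to 4. Values repeated on 4 or more arrays, as here, were found in 5 of the 84 members with a mean of at least 4 (5.95%) and in 6.1% of all such genes. *Cyc1*, which encodes cytochrome c1 of complex III but lies outside the naming rule, was called: 10.89, 10.97, 10.82, 10.83 and 11.1 in the ACI rats and 10.19, 10.2, 10.5, 10.28 and 9.93 in the BN rats, a difference of 0.70 ± 0.10 (limma adjusted p = 0.00301).

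Complex IV, cytochrome c oxidase, had 1 called gene among 10, *Ndufa4*, and a median difference of 0.07. *Ndufa4* was first assigned to complex I and is now known as a complex IV subunit. Its levels were 11.68, 11.95, 11.72, 11.77 and 11.79 in the ACI rats and 11.41, 11.52, 11.28, 11.49 and 11.06 in the BN rats, without overlap, and differed by 0.43 ± 0.09 (1.35-fold, limma adjusted p = 0.0193). *Cox5a*, a nuclear subunit of the matrix side, had the largest difference that was not called, 0.53 ± 0.28 (limma adjusted p = 0.303). It read 5.85, 6.07, 6.23, 7.13 and 7.19 in the ACI rats and between 5.8 and 6.07 in the BN rats, so ACI rats 4 and 5 alone were high. The value 6.07 was shared by ACI rat 2 and BN rats 2, 4 and 5. Another *Cox5a* probe set carries a further symbol and was not counted, so these levels rest on a single probe set. *Cox6c*, a small accessory subunit, lay lowest, at -0.39 ± 0.18 (limma adjusted p = 0.246). The 2 mitochondrially encoded subunits with a named probe set, COX1 and COX2, differed by 0.01 ± 0.18 and 0.11 ± 0.08 and were not called.

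In complex V the called genes and the rest pointed different ways. Of 15 subunits, 3 were called higher in ACI rats and none higher in BN rats, yet 9 of the 15 differences were below 0 and the median was -0.10. *Atp5mc3*, which encodes subunit c of the rotating ring, read 12.93, 12.83, 12.9, 12.9 and 12.65 in the ACI rats and 12.17, 12.42, 12.14, 12.41 and 12.12 in the BN rats. The strains did not overlap, and the difference of 0.59 ± 0.08 (1.51-fold, limma adjusted p = 0.00238) had the lowest adjusted p of the 90 genes.

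In the catalytic head of ATP synthase, the alpha and beta subunits were also called higher in ACI rats. *Atp5f1c*, *Atp5f1d* and *Atp5f1e* were not called, with differences of 0.24 ± 0.21, 0.51 ± 0.27 and -0.25 ± 0.16 (limma adjusted p = 0.596, 0.296 and 0.429). *Atp5f1a*, the alpha subunit, read 11.85, 11.71, 11.72, 11.8 and 11.49 in the ACI rats and 11.25, 11.28, 11.4, 11.11 and 10.91 in the BN rats, again without overlap (0.52 ± 0.10, 1.44-fold, limma adjusted p = 0.0115). *Atp5f1b*, the catalytic beta subunit, read 12.75, 12.48, 12.4, 12.54 and 12.15 in the ACI rats and 11.8, 12.17, 12.03, 12.04 and 11.78 in the BN rats. ACI rat 5 lay just below BN rat 2, and the difference was 0.50 ± 0.12 (1.41-fold, limma adjusted p = 0.0291). *Atp5mf*, a membrane subunit, had the largest negative difference of the complex, -0.54 ± 0.22 (limma adjusted p = 0.169), with a BN spread of 0.49 (SD) against 0.10 in ACI rats.

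**Figure D2:**
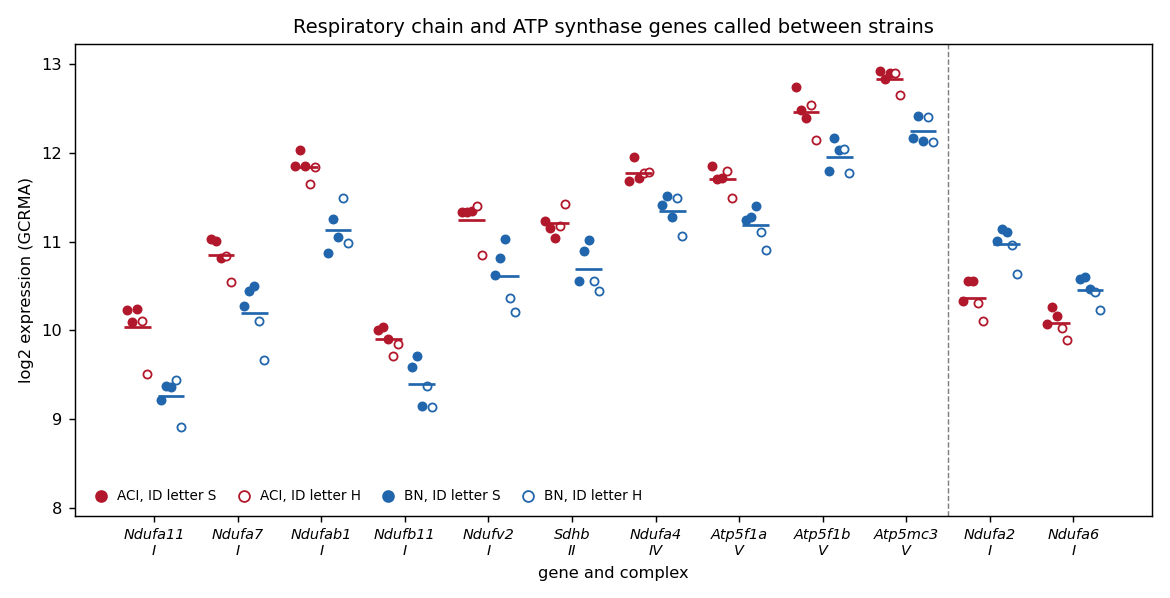
Log2 expression of the 12 called genes in each rat, ACI in red and BN in blue, with lines at the strain means; filled points are rats whose animal ID opens with S and open points those with H, and the complex is given under each gene. The 10 genes left of the dashed line are higher in ACI rats, the 2 genes right of it in BN rats, and *Ndufa11* shows ACI rat 5 at 9.51, below the 4 other ACI rats.

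No assembly factor was called. The 11 measured factors, which build complexes I and II or join complexes into larger units, had a median difference of 0.07 and ranged from -0.64 (*Ndufaf7*) to 0.39 (*Ndufaf5*). *Atp5if1*, the protein that stops ATP synthase from running backwards, differed by -0.33 ± 0.14 (limma adjusted p = 0.208).

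Tissue isoforms separated into those that gave a signal and those that did not. *Cox4i2*, *Cox6b2*, *Cox7b2* and *Ndufa4l2* were near background, below 4 on the log2 scale, in all 10 rats. The measured, widely expressed partners of these and of the muscle isoforms were well above background, and none but *Ndufa4* was called. The differences were 0.05 ± 0.04 for *Cox4i1*, 0.01 ± 0.22 for *Cox6b1* and -0.14 ± 0.11 for *Cox7b*. For the partners of the muscle isoforms *Cox6a2* and *Cox8b* they were 0.30 ± 0.15 (*Cox6a1*) and 0.09 ± 0.22 (*Cox8a*). The sign of *Cox6b1* turned with the set of rats, with scaling and with covariates, and that of *Cox8a* with the set of rats and with covariates.

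The muscle isoforms of complex IV varied widely between rats of the same strain. *Cox6a2*, the isoform of heart and skeletal muscle, read 2.7, 8.42, 6.66, 8.19 and 7.69 in the ACI rats and 4.7, 5.49, 2.54, 3.58 and 6.97 in the BN rats. *Cox8b*, the other striated muscle isoform, read 2.67, 8.72, 7.58, 8.44 and 7.35 in the ACI rats and 7.16, 6.32, 2.93, 5.91 and 7.54 in the BN rats. ACI rat 1 was near background for both genes while the other ACI rats were far above it, and the strains overlapped. The differences of 2.08 ± 1.27 for *Cox6a2* and 0.98 ± 1.33 for *Cox8b* were not called (limma adjusted p = 0.391 and 0.724). *Cox7a1* stood at 2.23, the lowest value of the data, in every rat.

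Skeletal muscle markers moved with these isoforms. The mean log2 level of 31 muscle genes was 5.05, 8.9, 7.3, 8.51 and 7.77 in the ACI rats and 3.4, 5.47, 3.16, 5.6 and 8.04 in the BN rats, and none of the 31 was called. In *Cox8b*, BN rat 1 read 7.16 with a muscle mean of 3.4, apart from the other rats. With the muscle mean as a covariate the differences became -0.28 for *Cox6a2* and -1.23 for *Cox8b*, neither of them called. Brown adipocyte markers (10 genes) averaged 2.99 to 3.20 in ACI rats and 2.94 to 3.13 in BN rats, and 7 of the 10, *Ucp1* among them at 2.23 in all rats, were near background in both strains. Of the others, *Ppargc1a* was called higher in ACI rats and *Cidea*, a lipid droplet protein, higher in BN rats (7.02 ± 0.38 against 8.54 ± 0.50, SD, -1.51 ± 0.28, limma adjusted p = 0.00868). Over the 12 called subunits, 7 were still called with the muscle mean as a covariate and all 12 kept their direction.

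**Figure D3:**
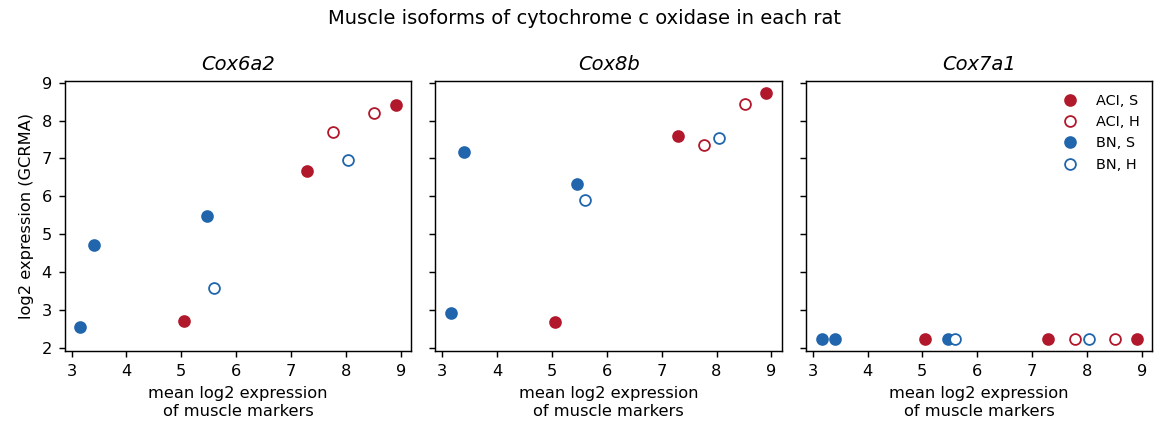
Log2 expression of *Cox6a2*, *Cox8b* and *Cox7a1* in each rat against the mean log2 expression of 31 skeletal muscle marker genes in the same rat, with ACI in red, BN in blue, animal ID letter S filled and H open. *Cox6a2* and *Cox8b* are near 2.7 in ACI rat 1 and above 6 in the other ACI rats, BN rat 1 stands high for *Cox8b*, and *Cox7a1* stays at 2.23.

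The animal IDs in the labels open with S for 3 rats and with H for 2 rats of each strain, but the labels do not say what the letters stand for. BN rats 4 and 5, both H, stood apart from the other BN rats over all probe sets (second principal component at -49.9 and -90.7, against 23.2 to 49.2), and the members were examined for this split. Without these 2 rats, 13 members were called higher in ACI rats and 15 higher in BN rats. Calls over all 31042 probe sets also rose in that fit, from 3930 to 6350. The strain difference depended on the letter for 9 of the 90 genes (limma interaction term), beside 3.01% of all genes (428 of 14217). For 7 of these genes the difference, ACI minus BN, was lower among S rats than among H rats (2.28% of all genes), and for 2 it was higher (0.732%). Within BN rats, 19 members were higher in S and 6 higher in H, against 7.22% and 2.88% of all genes. The array of BN rat 5, an H rat, was dimmer as a whole. Its median over probe sets with a mean above 4 was 6.88, against 7.13 to 7.3 on the other arrays. Its mean over the 70 subunits was 10.57, against 10.8 to 11.04 in the other rats. The part of this shift in the difference between letters was not tested. Within ACI rats none of the 90 was called, where 9 of all 14217 genes were (0.0633%).

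Subunits of complexes III, IV and V made up most of this group. *Cox6c* read 13.26, 13.24 and 13.28 in the BN rats with S and 12.52 and 12.49 in those with H, while all ACI rats lay between 12.44 and 12.67. The strain difference of *Cox6c* among S rats minus that among H rats, called the interaction here, was -0.84 ± 0.08 (SE, limma adjusted p = 0.00697). *Cox7c*, another small complex IV subunit, read 12.52, 12.52 and 12.64 against 11.91 and 11.72 in BN rats, and 11.98 to 12.41 in ACI rats (interaction -0.94 ± 0.15, limma adjusted p = 0.0332). *Atp5mf* read 13.23, 13.35 and 13.37 against 12.5 and 12.35 in BN rats, and 12.3 to 12.53 in ACI rats (interaction -0.72 ± 0.08, limma adjusted p = 0.0152). In each of these genes the BN rats with H sat within or just below the range of the ACI rats.

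The same held for *Atp5pd*, a subunit of the stalk that holds the catalytic head, with 12.64, 12.79 and 12.65 against 11.78 and 11.59 in BN rats and 11.73 to 12.37 in ACI rats (interaction -1.34 ± 0.22, limma adjusted p = 0.0348). *Uqcr10* and *Atp5if1* differed by -0.87 ± 0.15 and -0.77 ± 0.13 between the letters (limma adjusted p = 0.0393 and 0.0376). *Ndufaf7*, a methyltransferase needed for complex I assembly, had the lowest adjusted p: 6.53, 6.62 and 6.52 in BN rats with S, 5.51 and 5.34 in those with H, 5.18 to 5.34 in ACI rats with S, and 5.74 and 5.81 in those with H (interaction -1.64 ± 0.10, limma adjusted p = 0.00126).

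*Ndufb8*, an accessory subunit of the complex I membrane arm, and *Uqcr11*, a small complex III subunit, went the other way. *Ndufb8* read 7.43, 7.53 and 7.4 in BN rats with S and 8.1 in both rats with H, which is the level of ACI rats 1 and 4 (interaction 0.99 ± 0.17, limma adjusted p = 0.0416). *Uqcr11* read 11.64, 11.46 and 11.7 against 12.14 and 12.03 in BN rats, and the interaction was 0.89 ± 0.14 (limma adjusted p = 0.0347). Among S rats alone, 16 members were called higher in ACI rats and 14 higher in BN rats, against 8.28% and 11.5% of all genes. The 9 genes above were all called there, 7 of them higher in BN. Among H rats alone none of the 90 was called, and 56 of all genes were.

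**Figure D4:**
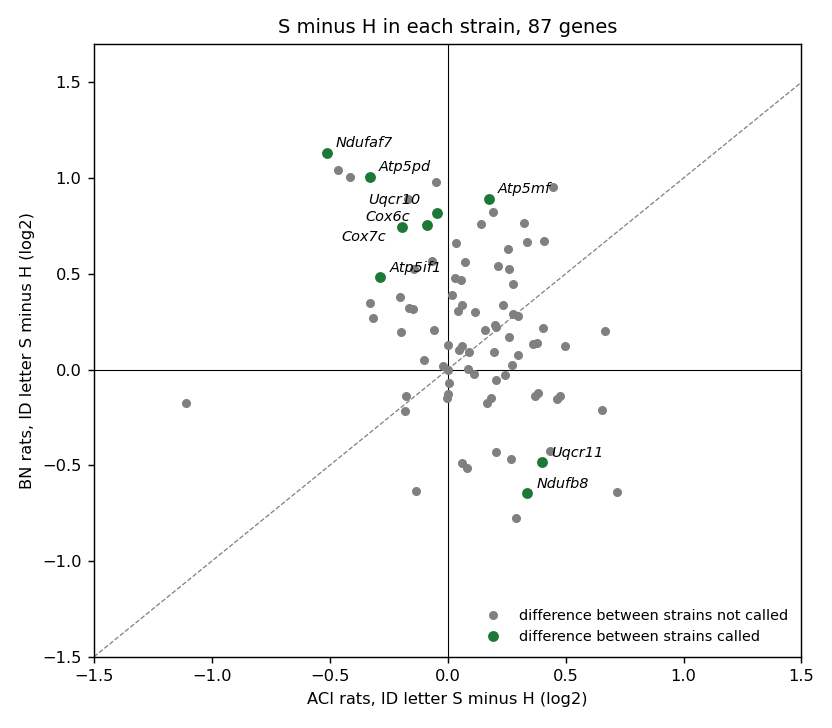
For 87 of the 90 genes (the muscle isoforms are left out), the log2 difference between rats with ID letter S and H in ACI rats (horizontal axis) and in BN rats (vertical axis); the dashed line marks equal differences, and green points are genes whose strain difference depended on the letter. *Ndufaf7* lies highest, with 1.13 in the BN and -0.51 in the ACI group, and *Ndufb8* and *Uqcr11* lie below 0 in BN rats.

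Other groups of mitochondrial genes and glycolysis also held called genes, mostly higher in ACI rats except in glycolysis. Their shares are given without a test between lists, beside those of the subunits and of all genes. Among all genes, 8.29% were called higher in ACI rats and 9.12% higher in BN rats. Of 73 mitochondrial ribosomal proteins, which translate the mitochondrially encoded subunits, 16 were called higher in ACI rats (21.9%) and 1 higher in BN rats, with a median of 0.28. *Mrpl38* had the largest difference among them, 1.51 ± 0.21 (limma adjusted p = 0.00223), and *Mrpl20* was the one called lower, at -0.37 ± 0.09 (limma adjusted p = 0.0273). Their mean level was 8.78 to 8.92 in ACI rats and 8.20 to 8.74 in BN rats, without overlap (p = 0.00794 by a two-sided exact permutation test, which can go no lower with 252 arrangements, and 0.0159 after Benjamini-Hochberg adjustment over 10 lists). The lists of luminal, B and plasma cell, macrophage and endothelial markers, described below, reached the same p in this test. T cell and basal markers gave 0.0265 and 0.0454 by it after adjustment.

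In the tricarboxylic acid cycle, 2 of 11 genes (18.2%) were called higher in ACI rats, led by *Idh3b*, a subunit of isocitrate dehydrogenase (0.77 ± 0.08, limma adjusted p = 0.000548). Of 16 genes of electron carriers, shuttles and exchange, 5 (31.25%) were called higher in ACI rats and 1 (6.25%) higher in BN rats. *Mpc2*, a subunit of the mitochondrial pyruvate carrier, differed by 1.40 ± 0.14 (limma adjusted p = 0.00054), and *Etfb*, which feeds electrons from fatty acid oxidation, by -0.85 ± 0.19 (limma adjusted p = 0.0213). Fatty acid oxidation was divided, with 4 of 16 genes (25.0%) called higher in ACI rats (*Eci1*, 1.72 ± 0.22) and 2 (12.5%) higher in BN rats (*Acaa2*, -1.09 ± 0.23). Glycolysis had 1 gene of 14 (7.14%) called higher in ACI rats (*Aldoc*, 1.36 ± 0.32) and 2 (14.3%) higher in BN rats (*Pgam1*, -0.53 ± 0.11). The wider list of 42 assembly genes, 10 of them members, had 3 (7.14%) called higher in ACI rats (*Ecsit*, 0.94 ± 0.22) and 1 (2.38%) higher in BN rats (*Uqcc1*, -0.46 ± 0.12).

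Regulators of mitochondrial biogenesis included 4 of 22 genes (18.2%, beside 8.29% of all genes) called higher in ACI rats and none higher in BN rats. *Ppargc1b*, a coactivator of respiratory chain genes, read 6.44, 6.02, 6.14, 6.59 and 7.51 in the ACI rats and 4.5, 4.69, 4.51, 3.13 and 4.5 in the BN rats, a difference of 2.27 ± 0.38 (limma adjusted p = 0.00568). Its relative *Ppargc1a* read 4.69, 4.34, 4.35, 4.89 and 4.68 in the ACI rats and was near background in the BN rats (2.69 to 3.14; 1.65 ± 0.13, at least 3.13-fold, limma adjusted p = 0.000138). Both coactivators separated the strains without overlap and by more than any called subunit. *Twnk*, the helicase of mitochondrial DNA, also differed, by 1.63 ± 0.24 (limma adjusted p = 0.00329). The other 18 genes were not called. Over all 22 genes, 17 differences lay above 0 and 4 below. Among factors that bind respiratory chain promoters, *Nrf1* differed by 0.03 ± 0.13, *Gabpa* by 0.35 ± 0.20 and its partner *Gabpb1* by -0.41 ± 0.24. The nuclear receptors *Esrra* and *Esrrg* differed by 0.61 ± 0.25 and -1.57 ± 0.47 (limma adjusted p = 0.161 and 0.0689), and *Tfam*, which acts on mitochondrial DNA, by 0.01 ± 0.16.

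**Figure D5:**
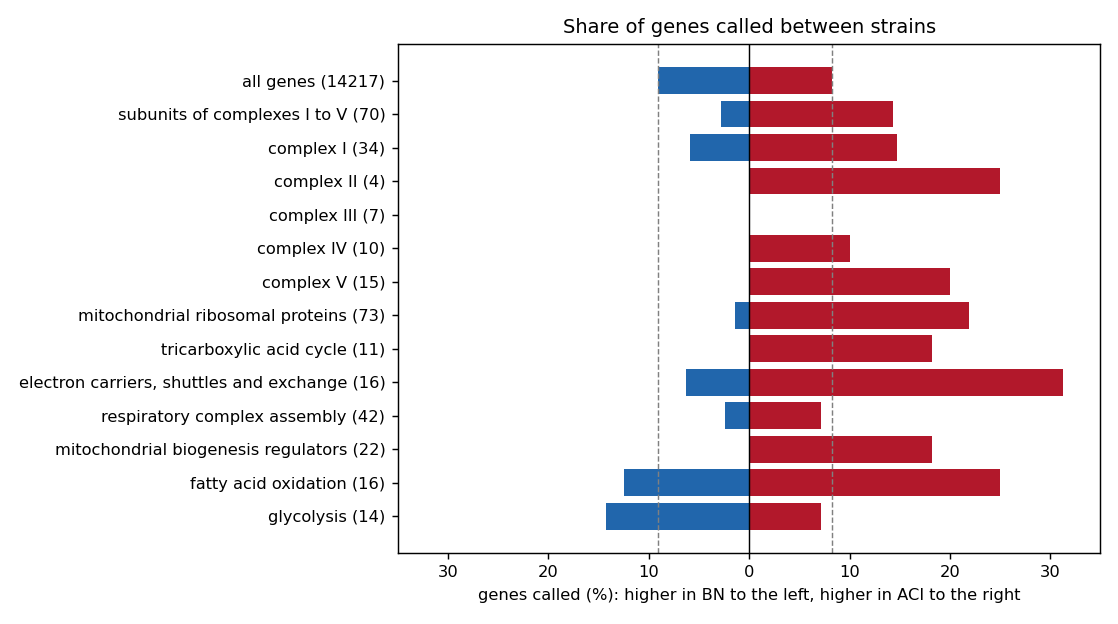
Percentage of genes called higher in BN rats (left of 0) and higher in ACI rats (right of 0) among all genes, the subunits of complexes I to V together and by complex, and other lists of energy metabolism, with the number of genes of each in brackets; dashed lines mark the shares over all genes, 9.12% and 8.29%. The subunits stand at 14.3% higher in ACI rats and 2.86% higher in BN rats, and the mitochondrial ribosomal proteins at 21.9% and 1.37%. The shares over all genes include genes below 4 on the log2 scale in every rat.

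Markers of several cell types moved with strain beside these differences. The mean of 15 luminal epithelium markers was 9.10 to 9.45 in ACI rats and 8.32 to 8.99 in BN rats. Of the 15, 5 were called higher in ACI rats. Their differences ran from -1.53 to 3.64, with 10 above 0 and 3 below, and 2 genes were near background in both strains. Beside the counts called here, 8.29% of all genes were called higher in ACI rats and 9.12% higher in BN rats. Markers of B and plasma cells (9 genes, 8 called higher in BN rats) averaged 2.89 to 2.98 in ACI rats, where 8 of the 9 were near background, and 4.12 to 8.33 in BN rats. T cell markers (15 genes, 8 called) averaged 4.27 to 4.66 and 4.63 to 7.44, and macrophage markers (13 genes, 6 called) 8.23 to 8.69 and 9.09 to 9.84. In the T cell list and in the macrophage list, 3 genes each had a higher mean in ACI rats. Endothelial markers (9 genes, 4 called) averaged 5.96 to 6.69 and 7.12 to 7.87. Adipocyte markers (13 genes, 2 called higher in BN rats) overlapped between strains, at 9.23 to 10.3 and 9.79 to 10.7, as did those of basal and myoepithelial cells (10 genes, 1 called higher in ACI rats), at 7.95 to 8.36 and 7.76 to 8.12. With the luminal mean as a covariate none of the 12 subunits was called, and 11 kept their direction. Calls over all probe sets fell from 3930 to 384. The luminal mean did not overlap between strains, so this fit can hardly separate it from strain, and genes of any kind lose calls. *Ndufab1*, *Ndufb11*, *Atp5mc3* and *Ndufa4* still differed by 0.79, 0.66, 0.51 and 0.44 and *Ndufa2* by -0.85, while *Sdhb* was at 0.04 and *Ndufv2* at -0.08. Other called subunits also shrank in some fits. Over all alternatives the lowest differences were 0.10 for *Atp5f1a*, 0.14 for *Atp5f1b*, 0.07 for *Ndufa7* and 0.38 for *Ndufa11*, and *Ndufa6* came no closer to 0 than -0.31. With the mean of the lymphocyte lists as a covariate none of the 12 was called either and all 12 kept their direction. These lists also differed widely between strains, and calls over all probe sets fell to 1209, so the same limit holds. The sizes moved both ways: *Ndufb11*, *Ndufab1*, *Atp5mc3*, *Ndufa4* and *Ndufa2* were at 0.82, 0.78, 0.70, 0.53 and -0.74, further from 0 than without it, and *Sdhb* and *Ndufv2* were at 0.09 and 0.16. The part of these cell types in the difference of the subunits was not tested.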

How the data were processed

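Members, gene lists, rules and alternatives were chosen with earlier results of these data known. The submitters' processing notes name GCRMA 2.18.1, with which the authors summarized the probes, and the deposited values are log2 expression per probe set with 2 decimals. The sources used here do not say which arrays entered GCRMA together. Of 31099 probe sets, 57 controls were left out and 31042 tested; 20826 carry 1 symbol in the platform annotation, 436 several and 9780 none, and 20758 of the first were matched to RefSeq gene IDs. Levels of different probe sets were not compared. ACI and BN rats, 1 array each, were compared with limma 3.58.1 (lmFit, eBayes, under R 4.3.3) in a model of strain alone, with Benjamini-Hochberg adjustment over all tested probe sets; an interaction with the ID letter was fitted in the same way. The fit was tested on simulated data. The number of arrays limits the precision, as do the rounding of the values and the floor they share. Replicates are separate rats. A level below 4 in all rats of a strain was called near background.

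The text names every called member, tissue isoforms with their partners, the extremes of each complex, genes whose probe sets or ID letters disagreed, and the called extremes of other lists. *Sdha*, *Ndufs1*, *Ndufs3*, *Ndufs7*, *Ndufs8*, *Ndufv1*, *Ndufaf5*, *Atp5f1c*, *Atp5f1d*, *Atp5f1e*, *Cyc1*, *Twnk*, *Nrf1*, *Gabpa*, *Gabpb1*, *Esrra*, *Esrrg*, *Tfam*, *Ucp1* and the mitochondrially encoded genes were chosen after their values were seen. A further 7 probe sets with several symbols, at least 1 of which fits the rule, were not counted. Of these 7, 3 were called higher in ACI rats and none higher in BN rats, with a median difference of 0.35. *Cox7a2*, *Atp5mc1*, *Atp5mc2*, *Ndufa10*, *Ndufs5* and *Uqcrb* had only such probe sets and are absent from the counts by complex. Alternatives covered the replicate block, the ID letter as a block and each letter alone, filter and floor, normalization and centring, the methods' t-test and Welch's test, the variance model, array weights, cross-hybridizing probe sets, averaging a gene's probe sets, updated symbols, cell marker covariates and leaving out each rat; leaving out BN rats 4 and 5 was added after seeing the data.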

Additional observations from a re-analysis of the deposited data

Results flagged for a closer look

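Of the named members, 44 were taken here, 37 by the rule and 7 chosen after their values were seen. *Atp5f1c*, *Atp5f1d* and *Atp5f1e* were not among them. In these, 82 sets of 5 rats were examined for a rat far from the others of its strain (Dixon's test at the 95% level, critical value 0.71). The critical value was exceeded in 10 sets, where chance gives about 1 in 20 independent sets. A further 6 sets had a range of at most 0.1 and were not examined. The sets come from the same 10 rats and are not independent. Those of *Ndufa4l2*, *Uqcr10* and *Cox4i2* also rest on repeated or near-background values, so the count cannot be judged against that rate. In ACI rat 5, *Ndufa11* read 9.51 against 10.09 to 10.24 in the other ACI rats, *Ndufv2* read 10.85 against 11.33 to 11.4, *Ndufs7* read 9.15 against 10.26 to 10.55, *Ndufv1* read 9.45 against 10.17 to 10.36, *Ndufs3* read 9.55 against 9.97 to 10.14, and *Atp5pd* read 12.37 against 11.73 to 11.91. ACI rat 1 read 2.67 for *Cox8b*, where the other ACI rats read 7.35 to 8.72, and 2.54 for *Ndufa4l2*, where the others read 2.28. ACI rat 3 read 10.8 for *Uqcr10*, where the other 4 rats share the value 10.94, and BN rat 5 read 2.53 for *Cox4i2*, near background, against 2.23 to 2.25.

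The strain difference depended on the letter that opens the animal ID for 9 members. As the ACI-minus-BN difference in S rats minus that in H rats, it was -1.64 for *Ndufaf7*, -1.34 for *Atp5pd*, -0.94 for *Cox7c*, -0.87 for *Uqcr10*, -0.84 for *Cox6c*, -0.77 for *Atp5if1* and -0.72 for *Atp5mf*. It was 0.99 for *Ndufb8* and 0.89 for *Uqcr11*. Only 2 rats per strain have IDs with H, and 3.01% of all genes were called in this test.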

How the results depend on the processing

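Of the 12 called members, 11 kept their direction under every alternative; *Ndufv2* turned to -0.0815 with the luminal covariate. All 12 stayed called under the ID letter as a block, centring, quantile normalization and the filter that left out probe sets with a mean below 4. The median log2 difference of the 90 genes, 0.07, ranged from -0.000905 (luminal covariate) to 0.13 (muscle covariate), less than the spread between rats. The cause of the changes given here was not tested.

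Members called higher in ACI rats, 10, became 0 with ID letter H alone or the luminal covariate, 1 with the B, plasma and T cell covariate, 4 with the trended robust variance, 5 by Welch's test, 16 with ID letter S alone, 19 with array weights and 18 by the methods' t-test unadjusted (9 after adjustment). Members called higher in BN rats, 2, became 0 with ID letter H alone or the lymphocyte, luminal or muscle covariate, 1 with the trended robust variance, 4 with centring or the methods' t-test unadjusted, 13 with array weights, 14 with ID letter S alone and 15 without BN rats 4 and 5. Over all probe sets, 3930 calls became 1209 (lymphocyte covariate), 100 (H alone), 2444 (Welch), 8397 (array weights), 384 (luminal), 2417 (muscle), 7434 (methods' t-test unadjusted; 3595 adjusted) and 6350 (without BN rats 4 and 5). Leaving out each rat gave 5 to 13 members higher in ACI rats, 1 to 4 higher in BN rats and 2598 to 4618 probe sets.

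Samples with the same replicate number did not deviate together (correlations from -0.25 to 0.23), so the numbers do not pair rats; with the replicate block 4 members were called higher in ACI rats, 2 higher in BN rats and 1926 probe sets in all.

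Some uncalled members changed sign, including some with large differences in the main comparison (*Cox6a2* 2.08, *Cox8b* 0.98, *Ndufaf7* -0.64 and *Ndufb8* 0.47). With H alone the values were 0.14 for *Atp5if1*, 0.43 for *Atp5pd*, -0.065 for *Cox6a1*, 0.12 for *Cox6c*, 0.45 for *Cox7c*, -0.18 for *Cox8a*, 0.35 for *Ndufaf7*, -0.12 for *Ndufb8*, -0.26 for *Ndufs7* and -0.51 for *Uqcr11*. With the luminal covariate they were -0.0672 for *Cox4i1*, 0.0865 for *Cox4i2*, -0.67 for *Cox6b1*, -0.39 for *Cox8a*, -0.0131 for *Ndufa4l2*, -0.10 for *Ndufaf5* and -0.18 for *Ndufs3*. With the muscle covariate they were -0.28 for *Cox6a2*, 0.12 for *Cox7c*, -1.23 for *Cox8b* and -0.0613 for *Uqcr11*. The lymphocyte covariate gave -0.26 for *Cox6b1*, 0.18 for *Cox6b2* and -0.0499 for *Cox8a*, and the adipocyte covariate -0.0823 for *Cox6b1* and 0.0588 for *Cox6b2*. *Cox6b1* was also -0.17 with S alone, -0.17 with array weights, -0.02 with centring, -0.0181 with quantile normalization and -0.30 without BN rats 4 and 5, where *Ndufs3* was -0.02. Leaving out each rat gave -0.1445 to 0.1125 for *Cox6b1*, -0.0145 to 0.298 for *Cox8a*, -0.0575 to 0.116 for *Uqcr11* and -0.07 to 0.005 for *Cox4i2*.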
